A study of Homo sapiens with 23 samples.

Results

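Zinc and copper in a cell are bound by metallothioneins, short proteins rich in cysteine, whose genes are switched on by the zinc-sensing transcription factor MTF1. The genes examined were the 8 metallothioneins MT1A, MT1E, MT1F, MT1G, MT1H, MT1M, MT1X and MT2A together with MTF1. They were picked by gene symbol, with earlier results of these data known, and are 9 of the 60564 genes listed in each library. In liver, metallothioneins store and buffer zinc and copper, and in the intestinal epithelium they hold metal taken up from food. Their genes are also known to respond to glucocorticoids, cytokines and oxidants. When zinc is plentiful, MTF1 binds short promoter sequences called metal response elements and raises transcription of MT1 and MT2 genes and of the zinc exporter SLC30A1.

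mRNA-seq was performed on 23 libraries from 2 established human cell lines grown in a microfluidic gut-liver chip. Caco-2 cells (11 libraries) come from a colorectal adenocarcinoma and serve as a gut epithelium model, and HepG2 cells (12 libraries) come from a liver tumour and serve as a hepatocyte model. Each line was mono-cultured or co-cultured with the other line, and was left as control or given FFAs, a mixture of palmitic and oleic acid at a total of 1 mM, for 1 day. This gave 4 groups a line of 3 libraries each, except co-cultured control Caco-2 cells with 2. The labels place the treatment in medium with 0.5% FBS, whereas the study's methods name serum-free medium with albumin. In co-culture the chambers of both lines share circulating medium, so every co-cultured group differed from mono-culture in the partner line as well as in the medium reaching the cells. The study's methods name independent experiments and biological replicates for the mRNA-seq, but not which libraries came from separate chips or experiments, so the p-values measure the spread between these libraries, which may in part be technical.

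Values are TPM, a share of all transcripts in the library, which correct for transcript length and allow levels of different genes to be compared. They keep no read counts, so the depth of each library is unknown and a gene without signal is described as listed at 0. Of the 207 values of these 9 genes, 47 were listed at 0, against 0 of 276 values of 12 genes that every cell uses. Between 19259 and 23689 genes a library were above 0. Labels were checked against markers. CDH17, an intestinal cadherin, was at 354 to 480 TPM in Caco-2 libraries and at most 2.75 TPM in HepG2 libraries, and the intestinal factor CDX2 was at 60.4 to 136 and at most 0.73 TPM. Of the same fixed list, CDX1 was at most 0.18 TPM in Caco-2 libraries, and MEP1A was at 15.6 to 32.9 TPM in Caco-2 and up to 69.97 TPM in HepG2 libraries. AMBP, a plasma protein of hepatocytes, was at 3383 to 5848 TPM in HepG2 and 6.47 to 62.0 TPM in Caco-2 libraries. Caco-2 libraries also held hepatocyte markers at high levels, AHSG at 918 to 1554 TPM and APOH at 532 to 916 TPM.

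The 8 metallothionein genes lie side by side on chromosome 16 (GRCh38, GENCODE release 44) from 56608584 to 56684196, a stretch of 75.6 kb, in the order MT2A, MT1E, MT1M, MT1A, MT1F, MT1G, MT1H and MT1X. MT1G alone is on the minus strand. MTF1 is on chromosome 1, 37809574 to 37859592, minus strand, and its canonical transcript has 11 exons. The paralogs resemble each other in sequence. Of the 50-base windows of the canonical MT1X transcript, 49.0% occur in no other gene, the smallest share of the family, and the others recur in 9 other genes, pseudogenes included. The share found nowhere else was 79.6% for MT1H, 80.1% for MT1G, 85.4% for MT1M, 88.9% for MT2A, 89.7% for MT1E, 93.9% for MT1F and 94.2% for MT1A. Reads from shared stretches have to be divided between paralogs, so the split between MT1X and its relatives is less certain than that of MT1F or MT1A.

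Promoter sequences in the RefSeq table (GRCh38.p14) matched 4 of the 9 genes: MT2A, MT1H, MT1X and MTF1. The 250 bases before the annotated start of the 3 metallothioneins are shown because they carry the metal response elements through which MTF1 acts, and because these genes had very different levels in the libraries. Capitals mark each match to the core of the element, TGCACNC or TGCGCNC, on either strand. All are written 5′ to 3′ on the plus strand, which is the strand of these genes. No match overlapped another.
MT2A, chr16:56608334-56608583: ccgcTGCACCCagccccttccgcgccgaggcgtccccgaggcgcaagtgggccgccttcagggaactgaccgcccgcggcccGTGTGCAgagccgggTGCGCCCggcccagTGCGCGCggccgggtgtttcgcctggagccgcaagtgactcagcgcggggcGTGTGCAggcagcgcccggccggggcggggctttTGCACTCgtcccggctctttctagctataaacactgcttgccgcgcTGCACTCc
MT1H, chr16:56669564-56669813: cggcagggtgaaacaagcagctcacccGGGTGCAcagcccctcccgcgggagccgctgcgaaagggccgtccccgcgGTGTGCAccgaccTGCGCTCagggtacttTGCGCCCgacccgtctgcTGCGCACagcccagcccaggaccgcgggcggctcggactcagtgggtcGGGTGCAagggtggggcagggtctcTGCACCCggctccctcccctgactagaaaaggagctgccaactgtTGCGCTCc
MT1X, chr16:56682220-56682469: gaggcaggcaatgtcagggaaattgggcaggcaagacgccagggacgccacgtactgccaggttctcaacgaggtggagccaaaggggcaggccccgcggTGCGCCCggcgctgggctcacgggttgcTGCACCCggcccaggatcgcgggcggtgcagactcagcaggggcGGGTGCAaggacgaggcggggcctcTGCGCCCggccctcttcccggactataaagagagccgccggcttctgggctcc

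The core occurred 7 times before MT2A (5 on the gene's strand and 2 on the other), 8 times before MT1H (5 and 3) and 4 times before MT1X (3 and 1). Among 35116 RefSeq promoters of the same length, 24.8% held at least 1 core, 0.37% at least 4, 0.0313% at least 7 and 0.0171% at least 8. The window before MTF1 held 0, which says only that these letters are not in it. MT1H thus had the most cores of the 3. Of the 8 metallothioneins examined, it had the most libraries listed at 0, as described below. A match is a run of letters and was not measured as a binding site.

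**Figure D1:**
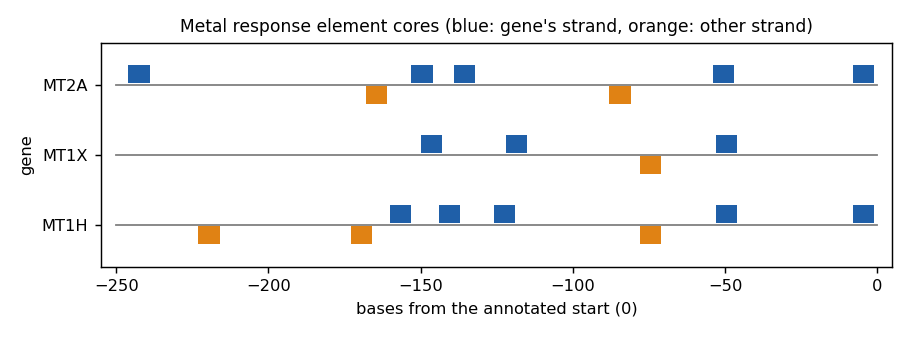
Positions of the metal response element cores in the 250 bases before the annotated start of MT2A, MT1X and MT1H (x axis, bases from the start at 0). Blue boxes are on the gene's strand and orange boxes on the other strand, and MT2A has 7, MT1X 4 and MT1H 8.

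HepG2 cells carried far more metallothionein RNA than Caco-2 cells, and the log2 difference was smaller for MT1F than for MT2A, MT1G, MT1E and MT1X (the differences between genes were not tested). The TPM of the 8 paralogs summed to a median of 1427 (range 582 to 2103, n = 12) in HepG2 libraries and 24.8 (13.9 to 107, n = 11) in Caco-2 libraries. MT2A, the most widely expressed human metallothionein, had a median of 950.2 TPM (341 to 1681) in HepG2 and 10.8 TPM (2.79 to 63.6) in Caco-2 libraries. MT1G was at 178 TPM (121 to 418) in HepG2 libraries, while in Caco-2 it was listed at 0 in 6 of 11 and reached 3.76 TPM. These bulk values cannot tell fewer expressing cells from less RNA per cell.

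The other paralogs filled the space between. MT1X had a median of 108 TPM (48.9 to 212) in HepG2 libraries and 4.07 TPM (0 to 15.3) in Caco-2 libraries. MT1E was at 81.7 TPM (31.5 to 147) in HepG2 and 0.32 TPM (0 to 2.61) in Caco-2. MT1F was at 72.7 TPM (30.7 to 113) and 13.3 TPM (7.24 to 27.2). All HepG2 libraries were above all Caco-2 libraries for each of these 5 genes, with MT1F the closest, 30.7 against 27.2 TPM at the nearest. MT1A, a low member of the family, was at 6.80 TPM (3.59 to 18.6) in HepG2 libraries and 0.64 TPM (0 to 1.3) in Caco-2 libraries, again without overlap. MT1M was listed at 0 in all 11 Caco-2 libraries and had a median of 1.23 TPM (0 to 4.26) in HepG2 libraries, 2 of which were listed at 0. MT1H was listed at 0 in all 11 Caco-2 libraries and in 10 of 12 HepG2 libraries, the other 2 being at 1.03 and 1.84 TPM.

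**Figure D2:**
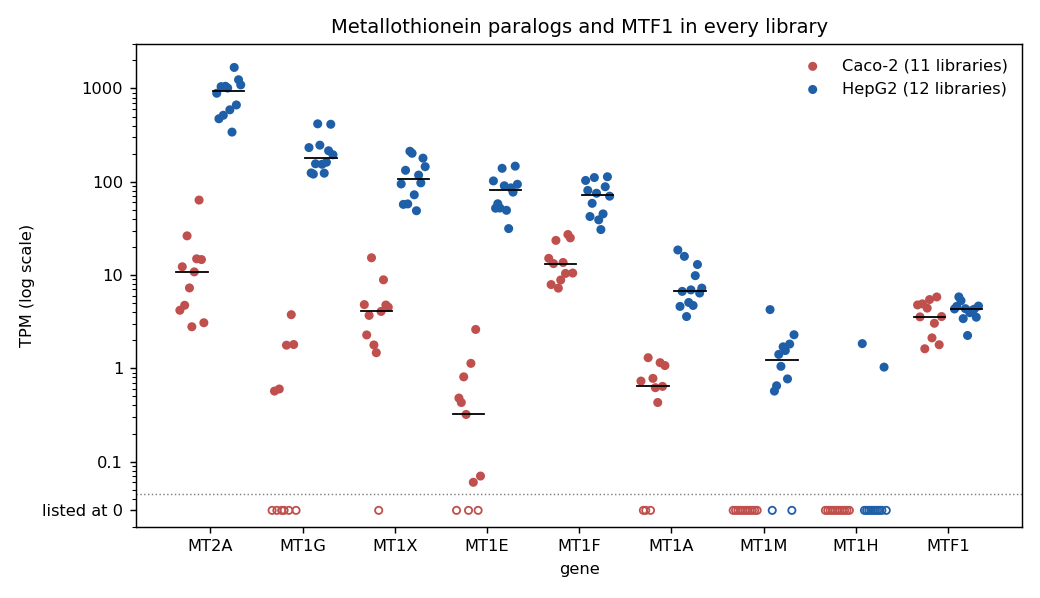
TPM on a log axis of each gene in every Caco-2 (red, 11) and HepG2 (blue, 12) library, with the median as a black line where it is above 0 and open circles for libraries listed at 0. The 6 metallothioneins from MT2A to MT1A separate the lines without overlap (medians of 950.2 and 10.8 TPM for MT2A, 6.80 and 0.64 TPM for MT1A), while MTF1 overlaps (4.31 and 3.59 TPM).

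The lines were compared with limma on log2(TPM + 1), averaged over the 4 conditions, with Benjamini-Hochberg adjustment over all 16495 genes whose mean reached 1 TPM in some group. Negative values are lower in Caco-2 cells. The difference was -7.01 (SE 0.25) for MT1G with an adjusted p of 1.68e-15, -6.18 (SE 0.41) for MT2A with 3.18e-11 and -5.74 (SE 0.25) for MT1E with 2.77e-14. For MT1X it was -4.64 (SE 0.34), adjusted p 1.65e-10. The smallest differences among the paralogs detected in both lines were -2.48 (SE 0.24) for MT1A, adjusted p 1.20e-08, and -2.22 (SE 0.21) for MT1F, adjusted p 7.68e-09. In Caco-2 libraries MT1G was listed at 0 in 6 of 11, and MT1E and MT1A each in 3 of 11. The low TPM of these genes sit near or below the added 1 TPM, so their values understate the fold. MT1M also passed, at an adjusted p of 2.61e-04, and no fold is given because all Caco-2 libraries were listed at 0. MT1H was below the filter and was not tested.

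In all, 7 of the 8 tested members passed, each lower in Caco-2 cells. The lines differ in most genes, and 79.0% of all genes tested passed in either direction, so that count says little about these genes in particular. In the direction lower in Caco-2 cells 29.2% passed. The groups did not overlap for 6 of the 8, against 42.7% of all genes tested. The median difference was -3.56 over the 8 members and 0.24 over all genes. MT1A, MT1E and MT1M reached a mean of 1 TPM only in HepG2 groups, so they were tested only through the line where they are high. The counts and the median of the members rest in part on that.

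MTF1, which codes for the zinc-sensing activator, had overlapping levels in both lines. Its median was 4.31 TPM (2.25 to 5.83) in HepG2 libraries and 3.59 TPM (1.62 to 5.82) in Caco-2 libraries, and the ranges overlapped. The difference was -0.22 (SE 0.16) with an adjusted p of 0.221. This call depended on scaling: MTF1 was at -0.40 with an adjusted p of 0.0277 after median-of-ratios scaling, and at -0.56 with an adjusted p of 0.00512 after quantile normalization.

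The makeup of the family differed as well. MT1F was 25.4% to 63.7% (median 48.7%) of the summed metallothionein TPM in Caco-2 libraries and 2.15% to 10.2% (median 5.33%) in HepG2 libraries. MT2A was 16% to 59.3% (median 38.7%) in Caco-2 and 54.4% to 79.9% (median 60.8%) in HepG2 libraries. For MT1F relative to MT2A, the level was 42.7% to 360% of that of MT2A in Caco-2 and 2.69% to 17% in HepG2 libraries, without overlap. MT1G took 7.70% to 21.5% of the sum in HepG2 and 0% to 6.33% in Caco-2 libraries. These shares are descriptions with no test.

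**Figure D3:**
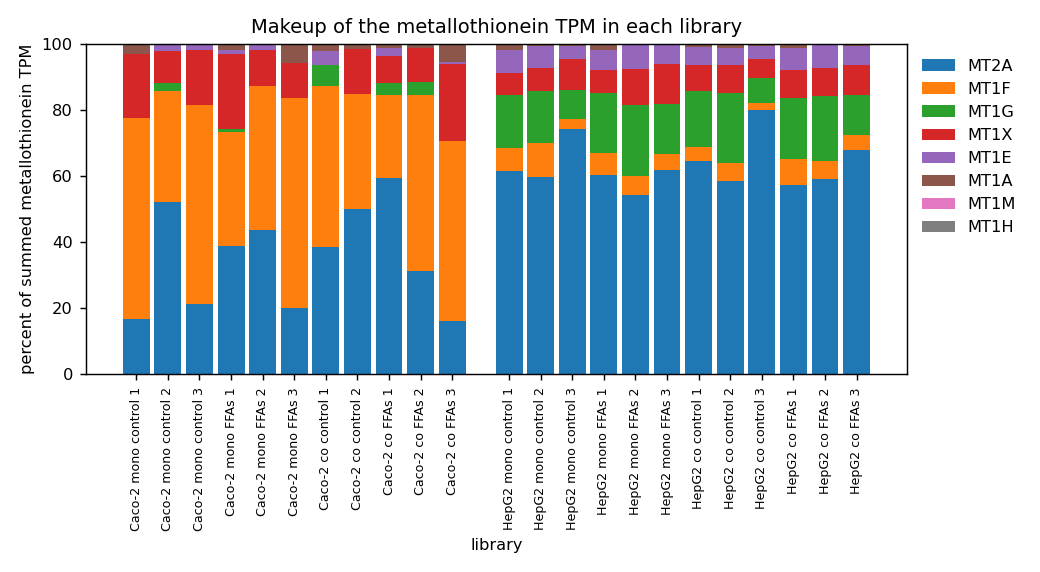
Share of each paralog in the summed metallothionein TPM (y axis, percent) for every library, grouped by line, culture and treatment. MT1F (orange) takes 25.4% to 63.7% of the Caco-2 bars and 2.15% to 10.2% of the HepG2 bars, and MT1G (green) 0% to 6.33% and 7.70% to 21.5%.

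Within a line, the order of the levels was only partly separated by the spread between libraries. In HepG2 libraries, by median TPM, it was MT2A, MT1G, MT1X, MT1E, MT1F, MT1A, MTF1, MT1M and MT1H. Neighbours in this order overlapped in their ranges except MT1F and MT1A. MT2A was nevertheless above MT1G in 12 of 12 libraries. In Caco-2 libraries the order was MT1F, MT2A, MT1X, MTF1, MT1A, MT1E and MT1G, with MT1H and MT1M listed at 0 throughout. Only MTF1 and MT1A did not overlap, and MT1F was above MT2A in 6 of 11 libraries.

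Other genes of metal handling differed between the lines in both directions. Of a list of 15 genes of zinc and copper handling or linked to MTF1, 7 were higher and 7 lower in Caco-2 cells, and 5 and 8 after either scaling. Of all 16495 genes tested, 8216 were higher and 4814 lower. These became 6728 and 6091 after median-of-ratios scaling and 6317 and 6517 after quantile normalization. The counts thus say little about the list in particular. SLC30A1, the zinc exporter that MTF1 controls, was at 25.0 to 41.8 TPM (median 28.3) in Caco-2 and 20.2 to 52.3 TPM (median 37.2) in HepG2 libraries. Its difference of -0.24 did not pass (adjusted p 0.134), but passed at -0.47 (adjusted p 0.00485) after median-of-ratios scaling and at -0.50 (adjusted p 0.00277) after quantile normalization. SLC30A10, a manganese exporter, was lower in Caco-2 cells, at -3.68 on the log2 scale, the largest difference of the list. ATOX1, a copper chaperone, was higher, at 1.28, and ATP7B, the copper-exporting ATPase of liver, was lower, at -1.13. The direction of these last 3 held under both scalings.

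FFAs in co-cultured HepG2 cells gave the smallest unadjusted p of the family within a line, that of MT1F, but no member passed after adjustment. MT1F was at 88.4, 113 and 70.04 TPM with FFAs and at 39.0, 30.7 and 45.2 TPM in control. MT1G was at 215, 413 and 195 TPM with FFAs and at 154, 124 and 162 TPM in control. For both genes every FFAs library was above every control library, 2 of the 8 members tested, against 5.42% of all genes. By limma the difference in MT1F was 1.21 (SE 0.32), unadjusted p 0.00257 and adjusted p 1.

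MT1E was at 77.4, 147 and 94.0 TPM with FFAs and at 49.4, 31.5 and 86.0 TPM in control, with overlap. MT2A was at 666, 1241 and 1093 TPM with FFAs and at 591, 341 and 1681 TPM in control, so its largest value was in control. The control library with 1681 TPM of MT2A had the lowest summed level of the 8 hepatocyte markers in HepG2 cells, 72.7% of the mean of mono-cultured control, against 78.4% to 108% in the other libraries. The part of this in the MT2A values was not tested. MT1X was at 97.3, 179 and 145 TPM with FFAs and at 72.5, 48.9 and 118 TPM in control, with overlap. Over the 8 tested members the differences ran from -0.13 (MT1M) to 1.21 (MT1F). MT1F, MT1E (0.98) and MT1G (0.83), 3 of the 8, had an unadjusted p under 0.05, as did 263 of all 14255 genes, while 0 members and 0% of all genes passed after adjustment.

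In mono-cultured HepG2 cells, the groups with FFAs and in control overlapped for every member tested. MT1G in HepG2 cells was at 156, 418 and 247 TPM with FFAs and at 233, 124 and 121 TPM in control, a difference of 0.73 (SE 0.37, unadjusted p 0.0737, adjusted p 1 by limma), the smallest p of the family there. MT1X was at 57.9, 212 and 202 TPM with FFAs and at 94.8, 57.2 and 133 TPM in control. MT1F was at 58.7, 111 and 75.3 TPM with FFAs and at 103, 80.8 and 42.4 TPM in control. In each of these genes the groups overlapped. MT2A was at 516, 1056 and 1012 TPM with FFAs and at 889, 474 and 1047 TPM in control. Differences ran from -0.28 (MT1A) to 0.73 (MT1G), 0 of 8 members and 0% of all genes passed, and 0 members separated the groups, against 6.47% of all genes.

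For MT1F, the co-cultured control libraries lay low. They were at 30.7 to 45.2 TPM against 42.4 to 103 TPM in mono-cultured control, a difference of -0.89 (SE 0.32, unadjusted p 0.0166, adjusted p 0.631 by limma), which was the smallest p of the family between the HepG2 controls. There the differences ran from -0.89 to 0.19 (MT1M), and 0 of 8 members and 0% of all genes passed. With a replicate block, 6 genes and 0 members passed. The comparison of FFAs with control in co-culture rests on the same control libraries. The effect of FFAs in co-culture minus that in mono-culture was 1.05 (SE 0.45) for MT1F, with an adjusted p of 1.00 and an unadjusted p of 0.037. For MT1G it was 0.096 (SE 0.53), and over the 8 tested members it ran from -0.12 (MT1M) to 1.05. In the test for any difference among the 4 HepG2 groups, MT1F again had the smallest p (unadjusted 0.0115, adjusted 0.625), and 0% of all genes passed.

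**Figure D4:**
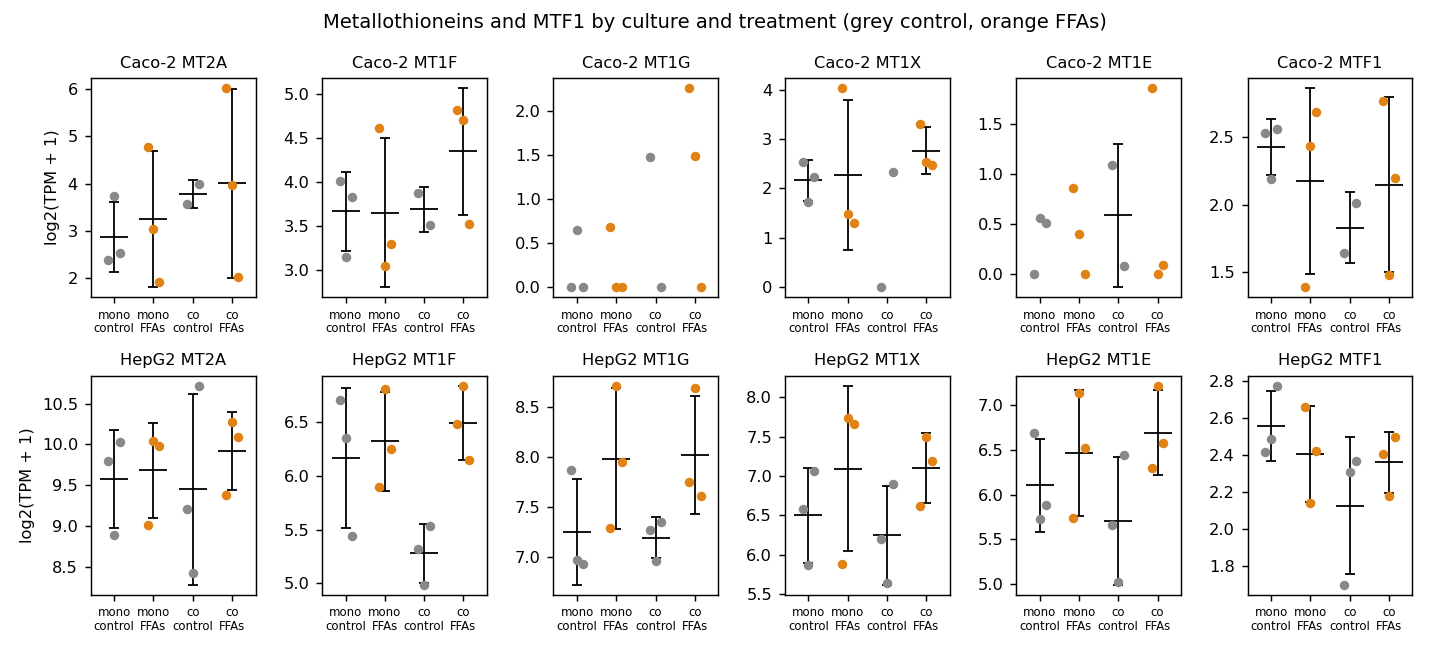
log2(TPM + 1) of 5 metallothioneins and MTF1 in Caco-2 (top) and HepG2 (bottom) cells by culture and treatment, one point a library (grey control, orange FFAs), with the mean and SD where no library was listed at 0. Axes differ between panels. HepG2 MT1F with FFAs in co-culture (70.04 to 113 TPM) lies above its co-cultured control (30.7 to 45.2 TPM), while most other groups overlap.

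With FFAs present, the groups of co-cultured and mono-cultured HepG2 cells overlapped for every member tested. Differences ran from -0.05 (MTF1) to 0.29 (MT1A), and MT1E had the smallest p, with a difference of 0.23 (SE 0.42, adjusted p 0.993 by limma). MT1E was at 77.4, 147 and 94.0 TPM in co-culture and at 52.3, 139 and 90.5 TPM in mono-culture, with overlap. MT2A was at 666, 1241 and 1093 TPM in co-culture and at 516, 1056 and 1012 TPM in mono-culture. Same-numbered libraries deviated together in this comparison. Within each replicate number MT1E and MT2A were higher in co-culture, while every other tested member went both ways. MT1A was at 13, 6.41 and 7.24 TPM in co-culture and at 15.9, 3.59 and 5.08 TPM in mono-culture. It had been at 6.93, 4.72 and 9.85 TPM in co-cultured control and at 18.6, 4.61 and 6.68 TPM in mono-cultured control. MT1M was at 1.82, 0 and 2.29 TPM in co-culture with FFAs, at 1.70, 1.55 and 0.77 TPM in co-cultured control, at 0.65, 1.41 and 1.05 TPM in mono-culture with FFAs and at 4.26, 0 and 0.57 TPM in mono-cultured control. No order of the groups could be read from either gene. With FFAs, 0 of 8 members and 0% of all genes passed (1 gene and 0 members with a replicate block), and 0 members separated co-culture from mono-culture, against 9.60% of all genes.

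MTF1 was lower in every co-cultured control library than in every mono-cultured control library of the same line. In HepG2 cells it was at 2.25, 3.95 and 4.17 TPM in co-culture and at 4.33, 4.61 and 5.83 TPM in mono-culture. In Caco-2 cells it was at 2.12 and 3.04 TPM in co-culture and at 4.78, 3.56 and 4.91 TPM in mono-culture. By limma the differences were -0.43 (SE 0.22, adjusted p 0.705) in HepG2 and -0.60 (SE 0.41, adjusted p 0.867) in Caco-2 cells, and neither passed. Separated groups were common between controls of the cultures, 14.9% of all genes in HepG2 and 23.1% in Caco-2 cells, and 1 member of 8 and 1 of 5 were among them. With FFAs, MTF1 was at 4.30, 3.53 and 4.65 TPM in co-culture and 5.31, 3.41 and 4.36 TPM in mono-culture of HepG2 cells, with overlap. In Caco-2 cells with FFAs it was at 5.82, 1.79 and 3.59 TPM and at 1.62, 4.42 and 5.46 TPM, again with overlap.

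In Caco-2 cells 5 members could be tested (MT1F, MT1G, MT1X, MT2A and MTF1), and the spread between libraries was wide. With FFAs in co-culture, MT2A was at 63.6, 14.7 and 3.08 TPM, and in co-cultured control at 10.8 and 14.9 TPM. In mono-culture it was at 26.3, 7.27 and 2.79 TPM with FFAs and at 4.19, 12.3 and 4.74 TPM in control. Each FFAs group thus held both a high library and the lowest library of its culture. MT1F was at 27.2, 25.0 and 10.5 TPM with FFAs in co-culture, at 13.6 and 10.4 TPM in co-cultured control, at 23.5, 7.24 and 8.85 TPM with FFAs in mono-culture and at 15.1, 7.90 and 13.3 TPM in mono-cultured control. The ranges of MT1F overlapped between all of these groups.

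MT1X had the smallest p of the family for FFAs in co-cultured Caco-2 cells. It was at 8.89, 4.77 and 4.52 TPM with FFAs and at 0 and 4.07 TPM in control, without overlap, and by limma the difference was 1.60 (SE 0.79, unadjusted p 0.0689, adjusted p 1). It rests on a control library listed at 0, and was 0.42 without that library. In mono-culture MT1X was at 15.3, 1.78 and 1.47 TPM with FFAs and at 4.82, 2.28 and 3.69 TPM in control. MT1G was at 3.76, 1.80 and 0 TPM with FFAs in co-culture, at 1.77 and 0 TPM in co-cultured control, and above 0 in 1 of 3 libraries of each mono-cultured group (0.60 TPM with FFAs and 0.57 TPM in control). MT1A, below the filter in Caco-2 cells, was at 1.15, 0.64 and 1.07 TPM with FFAs in co-culture and at 0.62 and 0.43 TPM in its control, without overlap, and in mono-culture at 1.3, 0 and 0.78 TPM with FFAs and 0.73, 0 and 0 TPM in control. MT1E was also below the filter, at 2.61, 0 and 0.07 TPM with FFAs and 1.13 and 0.06 TPM in control in co-culture, and at 0.81, 0.32 and 0 TPM and 0, 0.48 and 0.43 TPM in mono-culture.

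None of the 5 tested members passed in any Caco-2 comparison by limma. For FFAs in co-culture the differences ran from 0.23 (MT2A) to 1.60 (MT1X), with 3 of 15081 genes (0.0199%) passing, and 1 tested member separated the groups, against 17.2% of all genes. For FFAs in mono-culture they ran from -0.25 (MTF1, SE 0.37, adjusted p 1) to 0.37 (MT2A), MTF1 having the smallest p, 0% of genes passed, and 0 members separated the groups, against 7.13%. Between the controls of the cultures they ran from -0.99 (MT1X) to 0.90 (MT2A), MTF1 had the smallest p, and 0.0199% of genes passed. Between the cultures with FFAs they ran from -0.02 (MTF1) to 1.02 (MT1G, SE 0.54, adjusted p 0.866, the smallest p), 0% of genes passed, and 0 members separated the groups, against 9.32%. The effect of FFAs in co-culture minus that in mono-culture was 1.49 (SE 1.06) for MT1X, adjusted p 1.00, the smallest p of the 5. In the test for any difference among the 4 groups 0.0133% of genes passed, and MT1G had the smallest p of the members (adjusted p 0.942). Over 3 against 2 or 3 libraries these fits leave wide errors, from 0.37 to 1.00 on the log2 scale for single comparisons. Differences of that size were not detectable, and larger ones could also be missed.

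The Caco-2 library with the most MT2A also had the most AMBP and HP of the Caco-2 libraries, but not the highest sum of the 8 hepatocyte markers. AMBP, picked with HP after their values were seen because Caco-2 cells express most of the others, was at 62.0 TPM in that library, 1.34% of its mean in mono-cultured control HepG2 cells. It was at 13.3 and 8.37 TPM in the other FFAs libraries in co-culture, at 23.5 and 8.17 TPM in co-cultured control, and at 6.47 to 9.64 TPM in mono-culture. HP, a plasma protein of hepatocytes, was at 1.89% of its HepG2 mean in that library, at 0.77% to 1.58% in the other co-cultured and at 0.53% to 1.51% in the mono-cultured libraries. At the AMBP share of 1.34%, the mean levels of co-cultured HepG2 cells with FFAs come to 3.68 TPM for MT1G, against 3.76 TPM measured, and to 1.42 TPM for MT1E, against 2.61 TPM measured. They come to 13.4 TPM for MT2A, 1.88 TPM for MT1X and 1.21 TPM for MT1F, against 63.6, 8.89 and 27.2 TPM measured. The other co-cultured libraries, set against HepG2 cells of their own condition, matched less closely for MT1G. It came to 0.743 TPM at 23.5 TPM of AMBP and 0.785 TPM at 13.3 TPM, against 1.77 and 1.80 TPM measured. At 8.17 and 8.37 TPM of AMBP it came to 0.258 and 0.496 TPM, and was listed at 0 in both libraries. The share and the levels come from different HepG2 groups, and the AMBP of mono-cultured Caco-2 cells was not subtracted, so these values are rough. The part of HepG2 RNA in the values of this library was not tested. The mono-cultured FFAs library with 26.3 TPM of MT2A had AMBP at 7.57 TPM, within the range of the other mono-cultured libraries. All 8 hepatocyte markers were above 0 in every Caco-2 library, and their sum was 3.86% to 6.33% of the HepG2 level in mono-cultured and 5.01% to 6.83% in co-cultured libraries, with 6.30% in the library with the most MT2A. Without the library with 63.6 TPM the difference in MT2A for FFAs in co-culture changed sign, from 0.23 to -0.78.

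**Figure D5:**
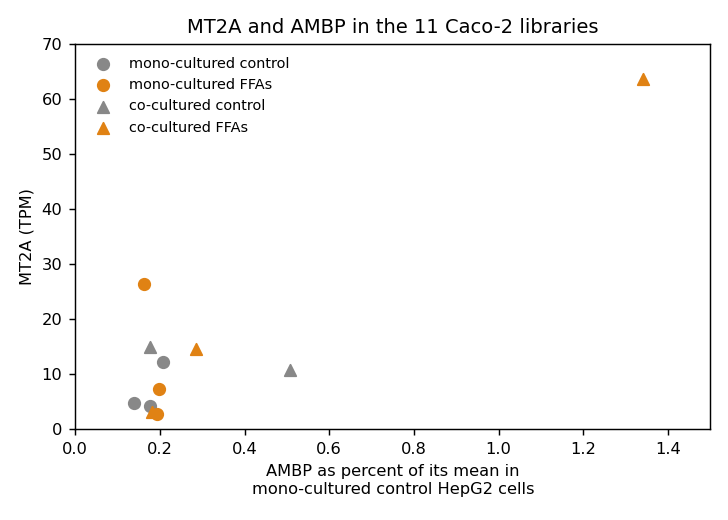
MT2A (y axis, TPM) against AMBP (x axis, percent of its mean in mono-cultured control HepG2 cells) in the 11 Caco-2 libraries, circles mono-cultured and triangles co-cultured, grey control and orange FFAs. One co-cultured FFAs library stands apart at 1.34% AMBP and 63.6 TPM MT2A, while a mono-cultured FFAs library reaches 26.3 TPM at 0.163%.

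The paralogs varied together from library to library to differing degrees. Over the 12 HepG2 libraries, after the mean of each group was subtracted from log2(TPM + 1), the 21 pairs of 7 metallothioneins had Pearson correlations from -0.34 to 0.87 (median 0.28). MT1X with MT2A, and MT1E with MT1G, were both at 0.87, MT1F with MT1G and MT1E with MT2A both at 0.83, and MT1F with MT2A at 0.28. MT1A with MT1X was lowest, at -0.34. Over the 11 Caco-2 libraries the 6 pairs of 4 metallothioneins had correlations from 0.01 to 0.76 (median 0.60). Paralogs of one library share its preparation and some of their sequence, so these are descriptions with no p.

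The correlation of MTF1 with single metallothioneins ran from -0.66 (MT1G) to 0.26 (MT1A) in HepG2 libraries and from -0.41 (MT1F) to -0.19 (MT1G and MT2A) in Caco-2 libraries. Its correlation with the mean of the metallothioneins was -0.33 in HepG2 and -0.30 in Caco-2 libraries, rank 12135 of 14248 and rank 9564 of 15077 from the highest among the genes compared. The mean in HepG2 cells took in 7 metallothioneins, the low MT1A and MT1M included, and its members' own correlations with it went down to 0.26. The 5 genes most like that mean in HepG2 cells were PPA2 (0.94), GPATCH4 (0.92), BABAM2 (0.92), LINC02365 (0.89) and OVCA2 (0.87). In Caco-2 cells they were GET1 (0.95), MRPS22 (0.94), GTF2H5 (0.93), SDF4 (0.92) and AC025165.3 (0.92). With so few libraries, 49 genes in HepG2 and 166 in Caco-2 cells reached 0.8.

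The other metallothionein genes and pseudogenes were almost all listed at 0. Of 12 such rows in the 23 libraries, 274 of 276 values were listed at 0. The exceptions were MT1B at 0.74 TPM in a mono-cultured HepG2 library with FFAs and MT1L at 0.47 TPM in a co-cultured control HepG2 library. Among the 15 metal handling genes, 0 passed after adjustment by limma in any comparison of treatments or cultures within a line, and at most 2 had an unadjusted p under 0.05. In HepG2 cells these were SLC31A2, a copper transporter, at -0.46 (unadjusted p 0.0132) between the cultures with FFAs, and CCS, the copper chaperone of SOD1, at -0.38 (unadjusted p 0.00433) between their controls. In Caco-2 cells they were COMMD1 for FFAs in mono-culture (0.19, unadjusted p 0.0477) and in co-culture (0.22, unadjusted p 0.0456). Between the Caco-2 controls they were COX17 and SLC39A10 (both -0.28, unadjusted p 0.0439 and 0.0438), and with FFAs SLC30A10 (0.51, unadjusted p 0.0392). Of all genes, 1073 of 14255 were under 0.05 between HepG2 controls and 819 of 15081 between Caco-2 controls.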

How the data were processed

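For each of the 23 libraries the authors deposited TPM of 60564 genes without read counts, so the depth and its precision are unknown. Per the labels and the study's methods, cDNA was made by SMART-Seq from polyadenylated RNA, reads from rRNA, tRNA and mitochondria were removed with Bowtie2 2.1.0, STAR 2.7.1a aligned the remainder to GRCh38 (Ensembl 98), and RSEM 1.3.0 gave the TPM. RSEM divides reads that fit several paralogs by a model, which affects single metallothioneins. One label describes the RNA source as myoblasts, which does not match the cell lines.

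Samples were grouped by the labels. Values were analysed as log2(TPM + 1) with limma 3.58.1 (trend, R 4.3.3) and Benjamini-Hochberg adjustment at 0.05, over genes whose mean reached 1 TPM in 1 group or more. All 8 groups entered the fit between lines, and the 4 groups of a line the fits within it. Python 3.11.15 (numpy 2.4.6, pandas 2.3.3, matplotlib 3.10.9) served for the rest. The fit was run on simulated data drawn independently for each library. These lacked any shared deviation of same-numbered libraries, and no result here rests on them. Same-numbered libraries deviated together (every correlation over 0.1) in 3 of the 4 HepG2 comparisons, all but FFAs in co-culture, and in 0 of the 4 Caco-2 comparisons. This pairing comes from the values, since the labels give only a number. Members and lists were chosen with earlier results of these data known. By rule, all 9 members are named, with the smallest p, the range and any separated groups in each comparison, 15 metal handling genes, 12 further family rows and the 5 genes most alike. AMBP as a single measure, and the metal handling genes named with values, were chosen after their values were seen. Alternatives were a pseudocount of 0.1, other filters on low TPM, limma without the trend, median-of-ratios scaling, quantile normalization, a replicate block, fits of only the groups compared, only mono-cultured libraries, the study's own criteria, and leaving out each library.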

Additional observations from a re-analysis of the deposited data

How the results depend on the processing

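TPM keep no depth, so counting error is unknown, and values near 1 TPM are damped by the added 1. Of 228 fold changes recomputed under the processing alternatives, 225 kept their direction and their side of the threshold, and the causes of the changes were not tested. MTF1 between the lines passed after either scaling, and its small difference between the HepG2 cultures with FFAs changed sign after quantile normalization (0.023). The count of members passing between the lines was 7, and 6 (without MT1M) among mono-cultured controls alone, 6 of 6 with a mean of at least 5 TPM, and 8 after either scaling. Scaling also moved the split of all genes, from 8216 higher and 4814 lower in Caco-2 cells to 6728 and 6091 (median-of-ratios) or 6317 and 6517 (quantile), with median differences of 0.24, 0.05 and -0.02. In the 12 other tests 0 members passed under any alternative, except under the study's own criteria. These are its limits for an analysis of variance without adjustment, applied here to log2(TPM + 1) of all genes above 0 in a library of the line. Under them 1 member (MT1F) passed for any difference among the HepG2 groups, with 1066 genes in all (957 in Caco-2 cells), against 0 and 2 by adjusted limma. In Caco-2 cells the counts of genes passing, 0 to 3, became 0 with a pseudocount of 0.1 or a mean of at least 5 TPM, up to 11 without a filter and up to 24 without a library.

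Same-numbered libraries correlated over 0.1 in 7 of 15 pairs in Caco-2, 15 of 18 in HepG2 and 4 of 11 between the lines. With a replicate block 7 members passed between the lines, where 13348 of 16495 genes passed, and 0 members passed elsewhere. The genes passing numbered 5 instead of 3 between Caco-2 controls, and 5 instead of 2 in the test of any difference in Caco-2 cells. In HepG2 cells they numbered 6, 1 and 15 instead of 0 between controls, between cultures with FFAs and in the test of any difference.

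Leaving out each library in turn left the count at 7 between the lines and at 0 in all other tests, and 16 of 414 fold changes changed sign. In Caco-2 cells FFAs gave MT2A -0.39 to 1.03 and MTF1 -0.51 to 0.14 in mono-culture, and MT2A -0.78 to 1.21 in co-culture. Between Caco-2 controls MT1X ran from -2.16 to 0.18, and between the cultures with FFAs MTF1 from -0.42 to 0.31. In HepG2 cells FFAs gave MT1A -0.84 to 0.24 in mono-culture and MT1M -0.45 to 0.40 in co-culture. Between HepG2 controls MT1M ran from -0.32 to 0.88, and with FFAs MT1A ran from -0.094 to 0.84, MT1E from -0.13 to 0.57 and MTF1 from -0.18 to 0.080. The difference in MT1F for FFAs in co-cultured HepG2 cells stayed between 1.04 and 1.38.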
